A study of Mus musculus with 6 samples.

Results

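The 9 genes described here are 6 transcription factors that drive the epithelial-mesenchymal transition (EMT), Snai1, Snai2, Twist1, Twist2, Zeb1 and Zeb2, and 3 surface proteins by which its progress is usually read, Cdh1, Cdh2 and Epcam. They were chosen by name and not by a cut on measured values, though with earlier results of these data known. Each had 1 probe set to which the platform's annotation gives exactly 1 symbol, so all 9 were tested, out of 19937 genes. Expression was measured in 2 mouse pheochromocytoma (PHEO) cell lines, with 3 MTT and 3 MPC samples and 1 Affymetrix Mouse Gene 1.0 ST array per sample. Per the study's methods, MPC cells come from a PHEO of Nf1 knock-out mice and MTT cells from liver metastases that MPC cells formed, so the Nf1 background is common to both lines. Neither line received a treatment. Each line is a permanent culture, and whether the 3 samples of each were grown as separate cultures is not stated, so p-values here reflect only how far these samples scatter, which may be technical. The MPC arrays are identified by title and cell type alone, since the fields for tissue and growth are worded alike on all 6 samples and name the metastasis and MTT cells. The study's methods describe arrays of MTT cells and do not mention arrays of MPC cells.

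In EMT, epithelial cells loosen their junctions and gain motility. SNAI factors (zinc fingers), ZEB factors (zinc fingers with a homeodomain-like stretch) and TWIST factors (basic helix-loop-helix proteins) bind short DNA motifs called E-boxes, and SNAI and ZEB factors repress Cdh1, which encodes E-cadherin. Replacement of E-cadherin by N-cadherin, the product of Cdh2, is known as the cadherin switch. Chromaffin cells, from which PHEO arises, come from the neural crest, a lineage that itself leaves an epithelium through EMT under these factors, and they are not epithelial cells in the usual sense.

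Snai2 was the only one of the 9 genes to pass the test between the lines: it rose 1.53-fold in MTT cells. The other 5 factors, both cadherins and Epcam did not pass the test, and their differences were at most 0.079 on the log2 scale in either direction. So 1 of 9 genes was called higher, where 3.93% of all genes tested were, and none was called lower, where 3.94% were (limma, adjusted p under 0.05, with 7.87% called in either direction). A count of 1 in 9 says nothing about the genes as a group, and the median difference of the 9 was 0.0068, beside a median of -0.0081 over all genes. At an unadjusted p under 0.05 from limma there were 2, Snai2 and Cdh2. The share of all genes under that threshold was not counted, so such counts, here and below, are descriptions only.

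**Figure D1:**
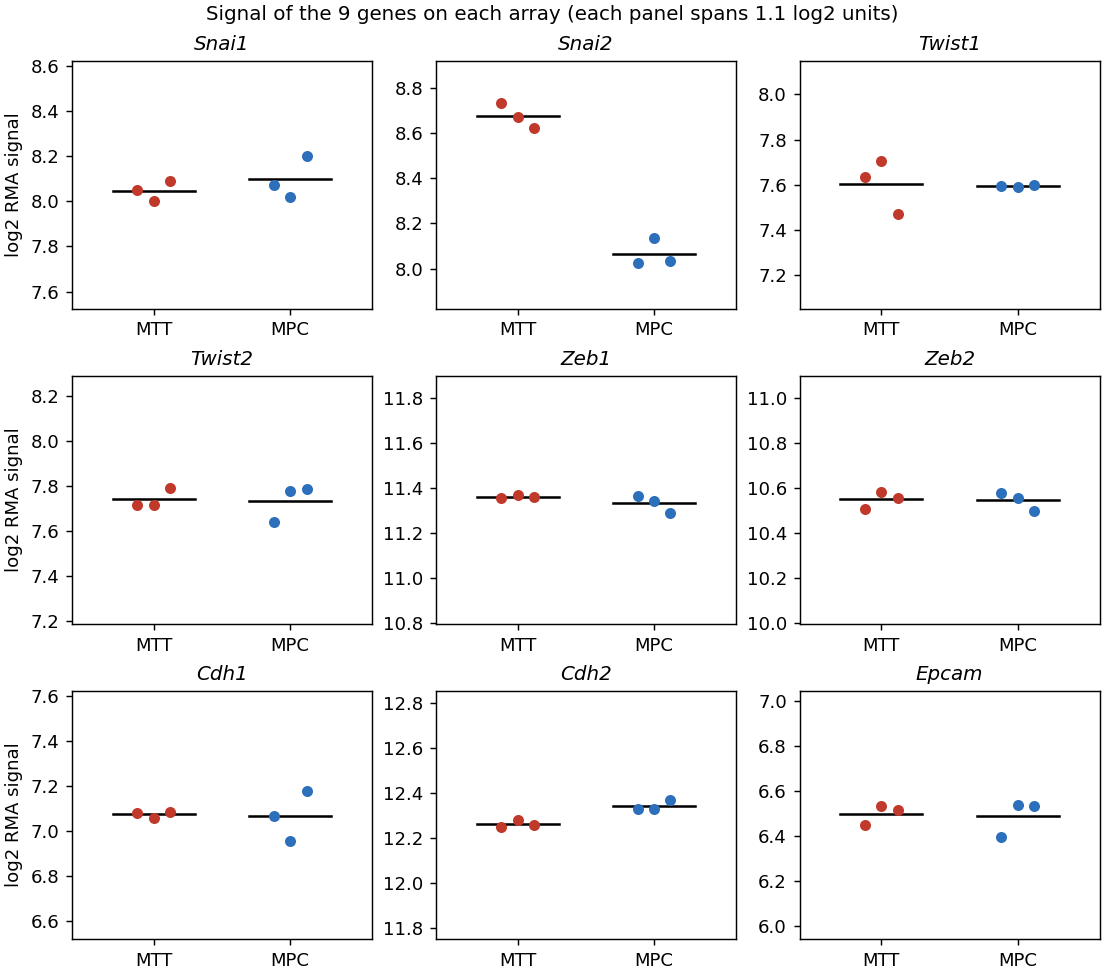
log2 RMA signal (vertical axis) of each of the 9 genes on single arrays, 3 of MTT cells in red and 3 of MPC cells in blue. Points are arrays, bars are means of 3, and every panel spans the same range of log2 units. The Snai2 points of the lines are apart by a mean of 0.61, and those of Cdh2 by 0.079 the other way.

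All signals are on the log2 scale of RMA, a procedure that corrects for background, forces the arrays to 1 distribution and condenses each probe set into 1 value. They carry no detection call, so the signals of 1027 olfactory receptor genes, a family used in the nose, served as a gauge of what a silent gene reads. These ran from 3.96 at their 5th to 7.15 at their 95th percentile, and the median of all genes tested was 8.28. A gene whose mean over the 6 arrays lay under either of the upper 2 values is said not to be shown above background. By this gauge Snai2, Zeb1, Zeb2 and Cdh2 were above background, while Snai1, Twist1, Twist2, Cdh1 and Epcam were not shown to be. Of the latter, Cdh1 and Epcam lay under both values. Snai1, Twist1 and Twist2 lay under the median of all genes only, and above the 95th percentile of the olfactory receptor genes. Probe sets differ in their affinity, so signals of different genes are not set against each other.

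**Figure D2:**
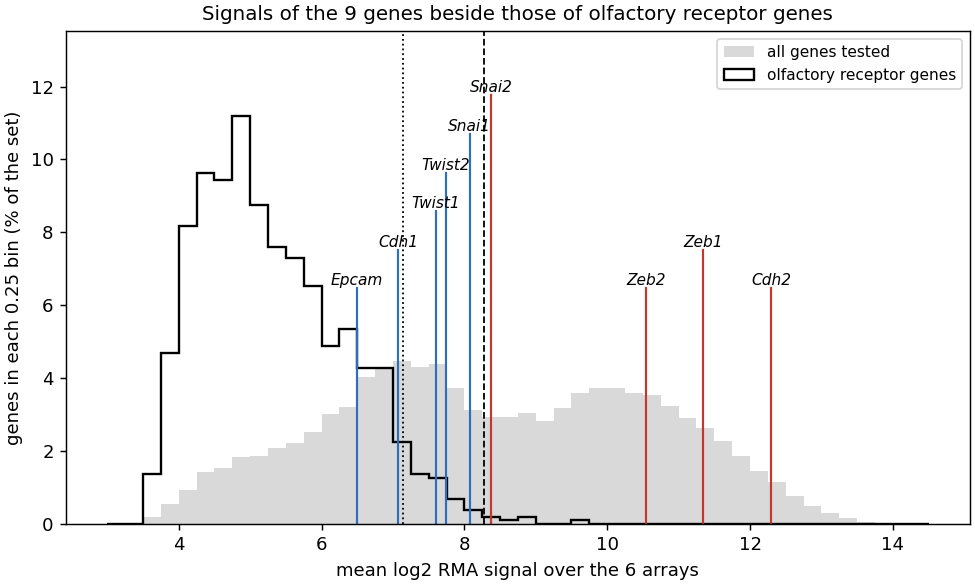
Mean log2 RMA signal over the 6 arrays (horizontal axis) of all genes tested (gray) and of olfactory receptor genes (black outline), as a percentage of each set per bin (vertical axis). The dotted line is the 95th percentile of the olfactory receptor genes, 7.15, and the dashed line the median of all genes, 8.28. Red lines mark the 4 genes above both, Snai2, Zeb2, Zeb1 and Cdh2, and blue lines the other 5.

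The SNAI factors are repressors that bind the E-box core and recruit histone-modifying enzymes. Snai2, also called Slug, is known for its part in the emigration of neural crest cells. Its signal was 8.74, 8.67 and 8.62 on the MTT arrays and 8.03, 8.14 and 8.03 on the MPC arrays. Every MTT array read higher than every MPC array. The means were 8.68 ± 0.057 (SD, n = 3) and 8.06 ± 0.061 (SD, n = 3), a log2 difference of 0.61 (95% interval 0.51 to 0.72, limma adjusted p = 0.000145). As a ratio this is 1.53-fold, with an interval of 1.42 to 1.64. The MPC mean lies under the median of all genes, so the MPC level of Snai2 alone is not shown above background, and background in a signal compresses a fold. In samples of a whole culture, more cells with Snai2 RNA and more Snai2 RNA per cell cannot be told apart.

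Snai1, also called Snail, is the other classical SNAI factor and is often induced early in EMT. It read 8.051, 8.001 and 8.091 on the MTT arrays and 8.074, 8.019 and 8.202 on the MPC arrays. The lines overlapped, with MPC replicate 3 the brightest of the 6. The log2 difference was -0.051 (95% interval -0.17 to 0.069, limma adjusted p = 0.654). The interval of Snai1 lies wholly below that of Snai2, though the difference between the 2 genes was not tested.

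The TWIST factors act as dimers with other helix-loop-helix proteins and are known in mesoderm, neural crest and metastasis. Twist1 read 7.63, 7.70 and 7.47 in MTT and 7.60, 7.59 and 7.60 in MPC cells. Its MPC arrays lay within the spread of the MTT arrays, and the log2 difference was 0.0080 (95% interval -0.13 to 0.14, limma adjusted p = 0.963). Twist2, the close paralogue of Twist1, read 7.72, 7.71 and 7.79 in MTT and 7.64, 7.78 and 7.79 in MPC cells. The lines overlapped here too, with a log2 difference of 0.0059 (95% interval -0.10 to 0.12, limma adjusted p = 0.967). Since neither gene is shown above background, a change at a lower level would not be seen.

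The ZEB factors bind paired E-boxes and repress epithelial genes, and Zeb2 is also a regulator of neural crest and neuronal differentiation. Zeb1 read 11.36, 11.37 and 11.36 on the MTT arrays and 11.36, 11.34 and 11.29 on the MPC arrays. The MTT arrays differed little from each other, and the brightest MPC array lay among them. The log2 difference was 0.031 (95% interval -0.047 to 0.11, limma adjusted p = 0.681). Zeb2 read 10.51, 10.58 and 10.56 in MTT and 10.58, 10.56 and 10.50 in MPC cells. The ranges of the lines nearly coincide, and the log2 difference of 0.0043 (95% interval -0.082 to 0.091, limma adjusted p = 0.969) was the smallest of the 9. Both ZEB genes were therefore read well above background in both lines, and their intervals lie between -0.082 and 0.11.

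ZEB messages are held down in epithelial cells by microRNAs of the miR-200 family and by miR-205, and ZEB factors in turn repress the miR-200 genes. The mature strands that act on ZEB messages are shown for their seeds (bases 2 to 8, in capitals), which set the target sites. By seed the family falls into 2 groups, miR-200a with miR-141 and miR-200b with miR-200c and miR-429, and miR-205 has a seed of its own. The sequences are from RefSeq, on build GRCm38.p6.
miR-200a-3p: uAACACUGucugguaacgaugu
miR-141-3p: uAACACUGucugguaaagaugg
miR-200b-3p: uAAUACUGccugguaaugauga
miR-200c-3p: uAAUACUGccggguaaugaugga
miR-429-3p: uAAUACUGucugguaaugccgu
miR-205-5p: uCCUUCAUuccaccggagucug

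Of these 6 miRNA genes, 5 had a probe set of their own, which reads the precursor transcript and not the mature strand; Mir429 had none with 1 symbol. None was called by limma, and 1 had an unadjusted p under 0.05, Mir205, with a log2 difference of -0.12 (limma adjusted p = 0.147). Mir200b had a mean signal of 5.31 ± 0.10 (SD, n = 3) across the MTT arrays and of 5.35 ± 0.13 (SD, n = 3) across the MPC arrays. For Mir200c these were 6.72 ± 0.044 (SD, n = 3) and 6.79 ± 0.055 (SD, n = 3). No precursor of the 5 was shown above background, so these values bear on neither the level nor a change of the mature miRNAs.

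The cadherins join neighbouring cells through calcium-dependent contacts. Cdh1, the E-cadherin gene, read 7.08, 7.06 and 7.09 in MTT and 7.07, 6.96 and 7.18 in MPC cells. The MTT arrays fell within the range of the MPC arrays, and the log2 difference was 0.0068 (95% interval -0.12 to 0.13, limma adjusted p = 0.967). The signal of Cdh1 was at the upper end of that of the olfactory receptor genes, and no E-cadherin message is shown in either line, so an exchange of one cadherin for the other cannot be read from these arrays. Cdh2, the N-cadherin gene, read 12.25, 12.28 and 12.26 on the MTT arrays and 12.33, 12.33 and 12.37 on the MPC arrays. Every MTT array read lower than every MPC array, by a mean log2 difference of -0.079 (95% interval -0.15 to -0.0059), which is 0.946 of the MPC signal. This did not pass (limma adjusted p = 0.206), though with a mean-variance trend it did (adjusted p = 0.0356). Of the 9 genes, 2 had arrays of the lines that do not overlap, Snai2 and Cdh2, beside 27.2% of all genes tested.

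Epcam encodes an epithelial adhesion protein. It read 6.45, 6.53 and 6.51 in MTT and 6.39, 6.54 and 6.53 in MPC cells. The lines overlapped, with a log2 difference of 0.012 (95% interval -0.10 to 0.12, limma adjusted p = 0.935), and the signal lay among those of the olfactory receptor genes. The Epcam promoter is shown because it holds the E-box core of SNAI and ZEB factors, spelt CACCTG on one strand and CAGGTG on the other (in capitals). The window is from RefSeq, build GRCm38.p6, chr17:87635729-87636028, + strand, and the matches start at bases 64 and 232 of it.
Epcam: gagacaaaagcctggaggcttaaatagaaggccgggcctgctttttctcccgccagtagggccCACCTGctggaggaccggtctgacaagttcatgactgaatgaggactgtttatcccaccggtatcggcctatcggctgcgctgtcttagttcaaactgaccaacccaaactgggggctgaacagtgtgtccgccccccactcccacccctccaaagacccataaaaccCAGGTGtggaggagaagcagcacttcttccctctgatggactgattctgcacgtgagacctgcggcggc

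Windows of this length were at hand for 5 of the 9 genes, Snai1, Twist1, Twist2, Zeb2 and Epcam, with 4 for Zeb2. Besides Epcam, the core occurred once in the window of Snai1, at base 125, and in none of the others. Of all 32851 windows, 20.2% hold it on either strand, and 72.3% hold any E-box (CANNTG, of which the core is 1 form). These are matches of letters and no sites of binding.

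**Figure D3:**
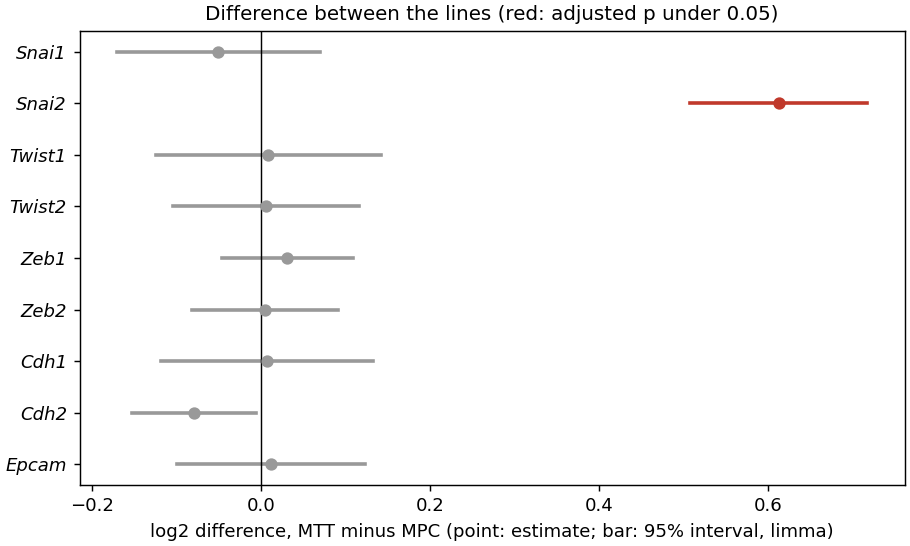
log2 difference between MTT and MPC cells (horizontal axis, MTT minus MPC) of the 9 genes (vertical axis), with points for estimates and bars for 95% intervals from limma. The interval of Snai2, in red, runs from 0.51 to 0.72, and those of the other 8, in gray, lie between -0.17 and 0.14.

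The neighbours of Snai2 on chromosome 16 did not pass the test. The 5 tested genes on each side of it include Mcm4, a subunit of the replicative helicase, and Prkdc, the catalytic subunit of a DNA repair kinase. The nearest tested gene on each side, A630010A05Rik and Efcab1, and also Myh11, were not shown above background. A change in them might not be seen. Whether the region as a whole changed was not tested. None was called by limma. At an unadjusted p under 0.05 were 4 of the 10, Nde1 with a positive and Cep20, Mcm4 and Prkdc with a negative difference. How many of all genes reach that threshold was not counted, so this is a description. The 10 differences ran from -0.12 to 0.089, and the median over the 648 tested genes of chromosome 16 was -0.013. The genes whose pattern over the 6 arrays was most like that of Snai2, among genes above the median signal, were Scg2, a granin of the secretory granule (Pearson's r = 0.9994), Armcx3, of the mitochondrial outer membrane (r = 0.9991), and Serinc5, a membrane protein (r = 0.9984). With 6 arrays in 2 lines such values rest largely on the gap between the lines, and they are a description. Scg2 rose by 0.55, Armcx3 by 0.36 and Serinc5, on chromosome 13, by 0.29 on the log2 scale.

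Both lines showed the markers of chromaffin cells. All 8 measured markers, among them Th, Dbh and Chga, were above background, 2 of them higher (Slc18a1, Gata3) and 1 lower (Chgb) in MTT cells. No marker of hepatocytes (5 measured), adrenal cortex (5), endothelium (4) or macrophages (5) was shown above background, and limma called none, though Pecam1 and Lyz2 had an unadjusted p under 0.05 (log2 differences -0.15 and 0.20). Of the Schwann cell markers Mbp alone was, out of 3, and of 6 fibroblast markers Col1a1 and Col1a2 were; limma called none of these, nor was any at an unadjusted p under 0.05. The summed log2 signal of the fibroblast markers lay between 42.5 and 42.8 in MTT samples and between 42.6 and 43.1 in MPC samples. That of the Schwann markers lay between 23.9 and 24.0, and between 23.8 and 24.2.

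The wider EMT programme, 161 genes in 11 lists, gave 17 genes higher and 7 lower in MTT cells, 14.9% of them, beside 7.87% of all genes tested (3.93% higher and 3.94% lower), with a median difference of 0.0068 beside -0.0081 over all genes. The lists were chosen with results of these data known, so the share is only a description. With ordinary variances, and with every probe set tested, 11 were higher.

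**Figure D4:**
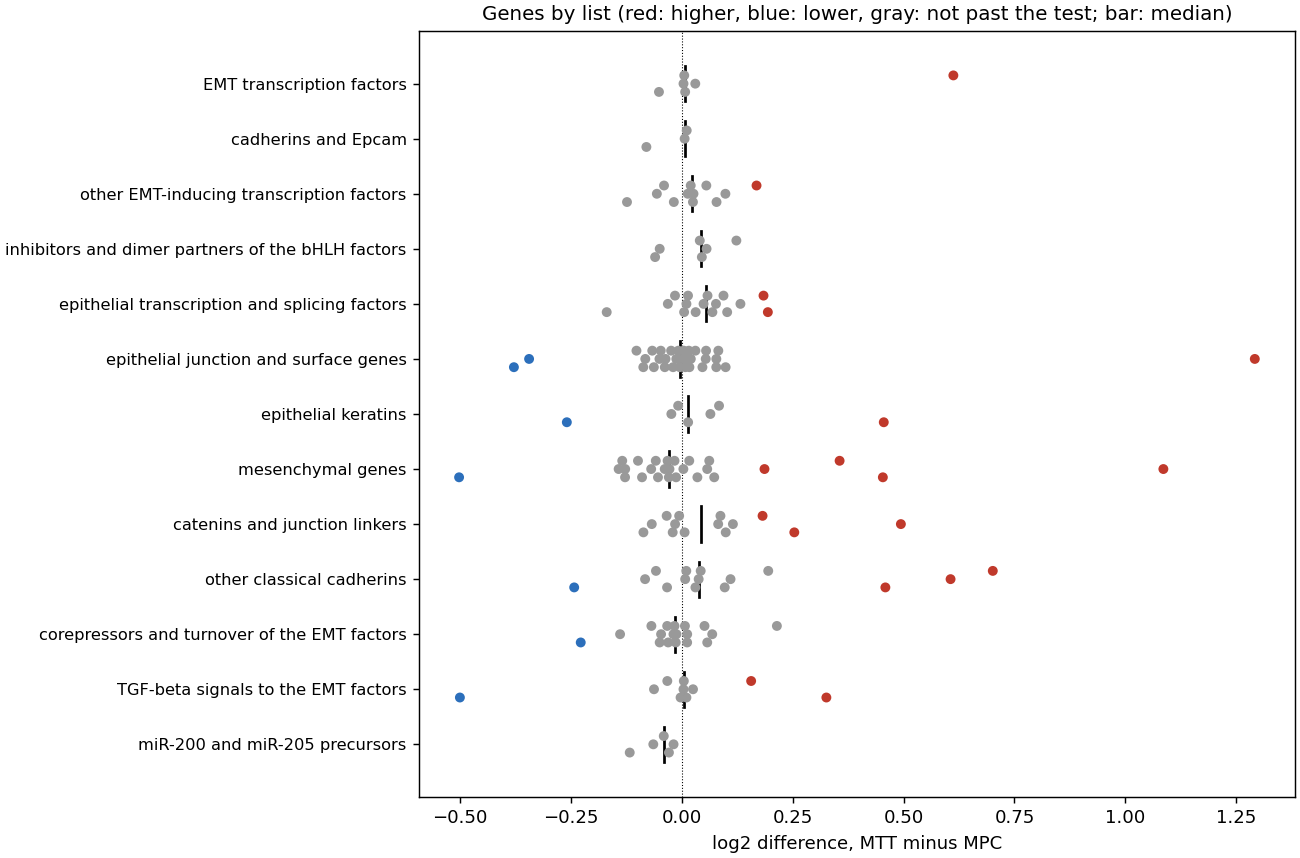
log2 difference between MTT and MPC cells (horizontal axis, MTT minus MPC) of each gene in the 2 groups of the 9 genes and in 11 further lists (vertical axis). Points are genes, red for higher, blue for lower and gray for not past the test, and black bars are list medians. The medians lie between -0.040 and 0.054, with single genes such as Cd24a, Postn and Snai2 to the right.

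Among 12 other factors that can induce EMT, Sox4 alone was called, with a log2 difference of 0.17 (limma adjusted p = 0.0321). Sox4 lies on chromosome 13, whose 732 tested genes had a median of 0.082 and whose 367 genes above the median signal, as Sox4 is, had a median of 0.20, more than Sox4 itself. Its call was lost in every leave-one-out fit but that without MPC replicate 3 (adjusted p 0.0666 to 0.116). Tcf3, Tcf4 and Tcf12, the E-proteins with which TWIST factors pair, differed by 0.099, 0.079 and 0.021 on the log2 scale and did not pass. Tcf3 and Tcf4 had an unadjusted p under 0.05 from limma, as did Foxc2 with a negative difference, -0.12. With a mean-variance trend, 2 of the 12 factors were called higher. Limma called none of 6 inhibitors and partners of helix-loop-helix factors, with 1, Id3, reaching an unadjusted p under 0.05, and Id2, which withholds E-proteins from DNA, read 12.72 in MTT and 12.77 in MPC cells. Of 18 corepressors and turnover factors, Btrc, a subunit of the ubiquitin ligase that marks SNAI1 for degradation, fell by 0.23 (limma adjusted p = 0.00573). Btrc lies on chromosome 19, whose 675 tested genes had a median of -0.061 and whose 337 genes above the median signal, as Btrc is, had a median of -0.11. The other 17 did not pass.

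TGF-beta is the best known inducer of these factors. Of 10 genes of that pathway, Tgfb3 rose by 0.33 (limma adjusted p = 0.00169) and Tgfb2 fell by 0.50 (limma adjusted p = 0.000245), so these ligands went opposite ways, while Tgfb1 read 9.68 in both lines. Skil, an antagonist of SMAD factors, differed by 0.16 on the log2 scale (limma adjusted p = 0.0461), and its call was lost in all 6 leave-one-out fits (adjusted p 0.0718 to 0.142). The receptors and SMAD genes did not pass.

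Epithelial genes gave calls in both directions, where 3.93% of all genes tested were called higher and 3.94% lower. The counts are descriptions only. The list median was 0.054 for transcription and splicing factors, whose calls were all higher. For junction and surface genes it was -0.0026, with calls both ways. Of 16 epithelial transcription and splicing factors, 3 were above background, and Grhl2, Ovol2 and Esrp1, guardians of the epithelial state, were not. Klf5 and Gata3 were called higher, with log2 differences of 0.18 and 0.19 (limma adjusted p = 0.0387 and 0.0445), and Gata3 is also a factor of the sympathoadrenal lineage. The call of Klf5 was lost in all 6 leave-one-out fits, and that of Gata3 in all but the one without MTT replicate 2 (adjusted p 0.0616 to 0.148 for both). Both calls also ended with the replicate block, at adjusted p = 0.0529 and 0.0657. Of 32 epithelial junction and surface genes, 1 was higher and 2 were lower, and 6 were above background. Cd24a, a surface glycoprotein also found on neurons, rose by 1.29, with means of 11.77 ± 0.0061 (SD, n = 3) for MTT and 10.48 ± 0.072 (SD, n = 3) for MPC arrays (limma adjusted p = 4.53e-06). The desmosomal plakophilin Pkp2 fell by 0.38 and the protease inhibitor Spint2 by 0.34 on the log2 scale, with means over all arrays not shown above background. The MPC mean of Spint2, 8.33, lies above the median of all genes, 8.28, and its MTT mean, 7.99, lies under it. The call of Pkp2 ended with ordinary variances (adjusted p = 0.116) and with all probe sets tested (adjusted p = 0.0614). Cdh3, Ocln and Cldn7, which build adherens and tight junctions, did not pass.

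The keratins Krt8 and Krt18 form 1 filament together in simple epithelia, and they went opposite ways. Krt18 rose by 0.46, to 9.86 ± 0.057 (SD, n = 3) on MTT arrays against 9.41 ± 0.026 (SD, n = 3) on MPC arrays (limma adjusted p = 0.000335). Krt8 fell by 0.26, to 8.80 ± 0.026 (SD, n = 3) on MTT arrays against 9.05 ± 0.057 (SD, n = 3) on MPC arrays (limma adjusted p = 0.00622). For each, no array of a line overlapped the other line. Keratin genes have close copies in the genome, so what each probe set reads is uncertain in part. The other 5 keratins measured did not pass and were not shown above background.

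Of 26 mesenchymal genes, 4 were higher and 1 was lower in MTT cells, with a list median of -0.028. Of all genes tested, 3.93% were called higher and 3.94% lower. Postn, a secreted matrix protein, rose by 1.09, to 11.01 ± 0.072 (SD, n = 3) on MTT arrays against 9.93 ± 0.039 (SD, n = 3) on MPC arrays, with limma adjusted p = 9.38e-06. Mmp2, a gelatinase, rose by 0.45 (limma adjusted p = 0.000168) and the calcium-binding S100a4 by 0.36 (limma adjusted p = 0.00774, and 0.0875 with ordinary variances). Fn1, which encodes fibronectin, differed by 0.19 on the log2 scale (limma adjusted p = 0.0168), and its call was lost without any 1 MTT array or without MPC replicate 2 (adjusted p 0.0505 to 0.0654). The surface protein Thy1 fell by 0.50 (limma adjusted p = 0.000638). The MPC mean of Thy1, 8.61, lies above the median of all genes, 8.28, and its MTT mean, 8.11, lies under it. Vim, the intermediate filament gene most used to mark mesenchyme, read 13.43 ± 0.018 (SD, n = 3) on MTT arrays and 13.42 ± 0.021 (SD, n = 3) on MPC arrays and did not pass. At an unadjusted p under 0.05 from limma were 9 of the 26. Beyond the called genes these were Mmp14 (log2 difference -0.14), Itgav (-0.13), Sparc (-0.13) and Cd44 (-0.13, not shown above background). All of these read lower in MTT cells and did not pass (limma adjusted p 0.0541 to 0.0773). With a mean-variance trend, and among genes above the median signal, 4 mesenchymal genes were lower instead of 1. Thy1 passes the filter at the median signal only through its MPC arrays, so its call there is no support.

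Cadherins are tied to actin by catenins, and of 14 catenins and linkers 3 were higher in MTT cells and none lower. Of all genes tested, 3.93% were called higher and 3.94% lower. The lists were chosen with results of these data known, so counts of catenins and cadherins are descriptions only. At an unadjusted p under 0.05 there were 7 of the 14 in either direction, with no share of all genes counted beside them. Ctnnd2, the neuronal delta-catenin, rose by 0.49 (limma adjusted p = 7.6e-05), Jup, or plakoglobin, by 0.25 (limma adjusted p = 0.00988, and 0.0716 with ordinary variances) and Nectin3 by 0.18 (limma adjusted p = 0.0161). The call of Nectin3 was lost without any 1 of the MTT arrays (adjusted p 0.0511 to 0.0712). Ctnnb1, or beta-catenin, read 12.62 in MTT and 12.63 in MPC cells, and Ctnnd1, which stabilises cadherins at the surface, 11.45 and 11.46. Ctnna1, which links them to actin, was at -0.086 on the log2 scale of differences and did not pass (limma adjusted p = 0.177). Of 15 other cadherins, Cdh20 rose by 0.70 on the log2 scale, Cdh18 by 0.61 and Cdh10 by 0.46, and Cdh4, or R-cadherin, fell by 0.24, a call that ended with ordinary variances (adjusted p = 0.0669). Cdh18 has 2 probe sets, and its difference ran from 0.46 to 0.61 over the alternatives with all arrays. Cdh10, Cdh18 and Ctnnd2 all lie on chromosome 15, whose 748 tested genes had a median of -0.012. Cdh6, Cdh9 and Cdh12, on the same chromosome, did not pass, and Cdh9 and Cdh12 are not shown above background. Cdh12, which lies between Cdh10 and Cdh18, differed by 0.20 (limma adjusted p = 0.141), with every MTT array above every MPC array. Whether this stretch of the chromosome changed was not tested. Over the 6 arrays the means of Cdh18 and Cdh20 are not shown above background. The MTT mean of Cdh20, 8.48, lies above the median of all genes, 8.28, and its MPC mean, 7.78, lies under it.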

How the data were processed

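RNA of 3 MTT and 3 MPC samples was hybridised to 6 one-colour Affymetrix Mouse Gene 1.0 ST arrays. The authors deposited log2 values after RMA; the methods name Partek and R, the submitters' processing notes Affymetrix Expression Console, with no versions given. Quantile normalization in RMA removes shifts shared by all genes. Of 34760 probe sets, 21640 had 1 symbol, 1321 several and 11799 none here; the brightest probe set stood for a gene. Symbols were updated through RefSeq (GRCm38.p6; 21553 probe sets matched), which was used for names, chromosomes, gene order and printed sequences only, since no source names the files' build.

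Lines were compared with limma 3.58.1 in R 4.3.3 (lmFit, eBayes, two-sided), with Benjamini-Hochberg adjustment over all 19937 genes. This was tested on simulated data beforehand. Median log2 signals were 7.73 to 7.77 per array and correlations between arrays 0.996 to 0.998; depth cannot be counted on arrays, and their number limits precision. Named were the 9 genes, up to 6 called genes of each list, 18 further genes fixed by name, and the 3 genes most like each called one; neighbours, Mir200b, Mir200c and Mir205 and 3 chromaffin markers were added after their values were seen. The genes, lists and gauge were chosen with earlier results of these data known. Alternatives were ordinary variances, a variance trend, the replicate block, other probe set choices, a filter, 2 normalizations and leaving out each array. Listed genes with no probe set of 1 symbol, and the promoters of Snai2, Cdh1, Cdh2 and Zeb1, were not analysed here. The planned difference between the Cdh1 and Cdh2 signals is not reported, since Cdh1 was not shown above background. Figures used Python 3.11.15 and matplotlib 3.10.9.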

Additional observations from a re-analysis of the deposited data

How the results depend on the processing

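Snai2 was called in the main fit and under all 14 alternatives, with log2 differences of 0.58 to 0.65 and adjusted p of 2.05e-06 to 0.0191, the latter with ordinary variances. With a mean-variance trend, 1 of the 9 genes was lower, Cdh2 (log2 difference -0.079, adjusted p = 0.0356), and under the other 13 alternatives none was (Cdh2 adjusted p up to 0.386). The 7 remaining genes were not called under any alternative. Leaving out 1 array turned the sign of 6 of them, all with differences near 0: the fits ran from -0.048 to 0.063 for Cdh1, -0.035 to 0.037 for Epcam, -0.091 to 0.00090 for Snai1, -0.043 to 0.075 for Twist1, -0.041 to 0.032 for Twist2 and -0.018 to 0.025 for Zeb2. Snai2 passes the filter at the median signal only through its MTT arrays, so its call there is no support. The same filter leaves out Snai1, Twist1, Twist2, Cdh1 and Epcam, so they have no value there. Of the 161 genes in other lists, 11 were higher with ordinary variances and 11 with all probe sets tested, in place of 17; leaving out 1 array gave 11 to 15 higher and 7 lower each time. Single lists moved by more than 1.5 times only through counts of 4 or fewer. With the replicate number as a block, Snai2 stayed called (adjusted p = 0.00099), and the calls of Sox4, Klf5, Gata3 and Skil ended (adjusted p 0.0511 to 0.0734). Arrays with the same number correlated at 0.074 to 0.25 in their deviations from the line means, others at -0.16 to 0.066, and each of 3 MTT arrays correlated best with its own number, a hint from the data and not from the design. For the signals not shown above background, a change below the arrays' background would not be seen.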
